A study of Homo sapiens with 18 samples.

Results

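The genes described here are the enzymes and partner proteins that write, copy and remove DNA methylation: DNMT1, DNMT3A, DNMT3B, UHRF1, UHRF2, TET1, TET2, TET3, TDG and MBD4. They are picked by gene symbol, with no measured value in the rule, and are 10 of the 25296 genes in the deposited table of counts. The series profiled RNA of U2OS, an established human osteosarcoma line, and asked how overexpressed mutant DNMT3A alters the response to cytarabine, an analogue of cytidine that enters DNA during S phase and slows replication. Per the labels there were 3 derived lines, with the empty retroviral vector MigR1 (EV), with overexpressed wild-type DNMT3A (WT) or with overexpressed mutant DNMT3A (MUT). The mutation is R882H in the sample labels and R882C in the series text. Each line was taken without cytarabine and after 24 h at 10 µM, with 3 biological replicates per the labels in each of the 6 groups, which gave 18 libraries. The labels call the cells without cytarabine untreated, and the series text calls them a vehicle control. All groups share the U2OS background and its own DNMT3A gene, and whether a line was 1 clone or a pool is not given in the sources used here.

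DNMT1 copies methylation onto the new strand after replication, and UHRF1 brings it to sites that are methylated on the parental strand only. UHRF2 is a paralogue of UHRF1. DNMT3A and DNMT3B methylate sites that carried no mark. TET1, TET2 and TET3 oxidise methylcytosine, TDG excises the oxidised bases that result, and MBD4 removes thymine left by deamination of methylcytosine. Residue changes such as R882H lie in the catalytic domain of DNMT3A and are frequent in acute myeloid leukaemia, a disease treated with cytarabine.

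In the authors' table, on hg38 per the submitters' processing notes, all 10 are protein-coding genes. DNMT1 lies at chr19:10133345-10231287, minus strand, UHRF1 at chr19:4903080-4962155, plus strand, and UHRF2 at chr9:6413151-6507055, plus strand. DNMT3A lies at chr2:25227855-25342591, minus strand, and DNMT3B at chr20:32762385-32809357, plus strand. TET1 lies at chr10:68560656-68694483, plus strand, TET2 at chr4:105145875-105279817, plus strand, and TET3 at chr2:73986404-74108177, plus strand. TDG lies at chr12:103965804-103988875, plus strand, and MBD4 at chr3:129430944-129440180, minus strand.

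Library totals ran from 15.4 to 21.9 M estimated counts (M for mega). All 10 genes passed the filter on low counts, and their estimated counts in a library ran from 35 for TET1 to 12105 for DNMT3A. Levels are given as CPM, counts per M of the scaled library size. Genes of the osteoblast lineage (8 of 9 listed had rows) summed to 1126 to 1590 CPM in a library, and markers of leukocytes, epithelium, endothelium and liver (7 of 8 had rows) to 3.70 to 13.8 CPM. The first sum was mostly SPARC, with group means from 888 to 1151 CPM. Others of that list were low, COL1A2 with group means from 0.46 to 7.97 CPM and BGLAP from 0.02 to 0.29 CPM. Untreated MUT replicate 3 stood apart from its 2 partners for several of the genes. Its log2 level differed from the mean of the other 2 by -1.13 for DNMT3A, -0.83 for TET3, -0.78 for TET2, -0.36 for DNMT1 and -0.30 for DNMT3B. For TET1 the same difference was -0.22, and for UHRF1, UHRF2, TDG and MBD4 it lay between -0.05 and 0.15. Replicates 1 and 2 were not alike either. Replicate 2 differed from the mean of the other 2 by 0.79 for DNMT3A, 0.59 for TET2, 0.56 for TET3 and -0.32 for UHRF1. For DNMT3A, TET3, TET2, DNMT1 and DNMT3B the cytarabine effect in MUT is given with and without replicate 3.

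Upstream sequences of 3 of the genes are shown because DNMT1 and UHRF1 fell together under cytarabine, while DNMT3B is the gene other than DNMT3A whose level separated the lines most. They are RefSeq sequences of GRCh38.p14, 5′ to 3′ on the strand of the gene, from 250 bases before an annotated transcription start to 10 bases after it. Capitals mark matches to the words TTTCCCGC, TTTCGCGC, TTTGCCGC or TTTGGCGC on either strand, spellings of the binding site of the E2F factors, which drive genes of S phase. The first stretch lies at chr19:10194944-10195203 on the minus strand, the second at chr19:4909251-4909510 on the plus strand, the next at chr19:4909894-4910153 on the plus strand and the last at chr20:32779602-32779861 on the plus strand.
DNMT1: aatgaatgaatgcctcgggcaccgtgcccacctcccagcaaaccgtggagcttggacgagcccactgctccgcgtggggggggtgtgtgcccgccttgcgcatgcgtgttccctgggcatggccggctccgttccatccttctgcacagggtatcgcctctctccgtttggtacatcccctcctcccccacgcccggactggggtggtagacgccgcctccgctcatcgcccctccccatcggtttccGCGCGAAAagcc
UHRF1, first start: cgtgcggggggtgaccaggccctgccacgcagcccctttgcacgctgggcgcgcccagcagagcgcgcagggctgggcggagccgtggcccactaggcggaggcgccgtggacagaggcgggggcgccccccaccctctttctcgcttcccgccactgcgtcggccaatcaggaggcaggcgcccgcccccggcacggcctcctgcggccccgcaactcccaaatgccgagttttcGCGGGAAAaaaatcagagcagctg
UHRF1, second start: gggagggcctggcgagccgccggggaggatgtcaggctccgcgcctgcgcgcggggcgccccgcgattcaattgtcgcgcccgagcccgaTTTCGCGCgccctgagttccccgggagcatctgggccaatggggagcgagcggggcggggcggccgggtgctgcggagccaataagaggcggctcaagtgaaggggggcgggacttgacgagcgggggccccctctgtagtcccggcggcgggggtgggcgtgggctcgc
DNMT3B: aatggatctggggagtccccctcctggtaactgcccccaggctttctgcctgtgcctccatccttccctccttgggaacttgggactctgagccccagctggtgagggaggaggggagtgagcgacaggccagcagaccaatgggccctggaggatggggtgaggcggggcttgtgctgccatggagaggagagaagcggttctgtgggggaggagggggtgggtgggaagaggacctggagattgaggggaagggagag
Counting the first transcribed base as 0, the match upstream of DNMT1 ran from -2 to 5. The matches of UHRF1 ran from -14 to -7 at its first start and from -160 to -153 at its second. The reference table held 21 windows of 300 bases for the 10 genes, and these 3 were the windows with a match. Such a word occurred in 3.31% of all 35116 windows of that reference. The words and the stretches to show were picked after the values of the genes had been seen. A set of 2 words was considered first, and the set of 4 was taken up after a further match in UHRF1 had been noticed, so the number of matches is no independent count. With only TTTCGCGC and TTTGGCGC, 2 windows of the members matched, in DNMT1 and UHRF1, against 1.15% of all windows. The word CCAAT, on either strand, occurred in windows of UHRF1, DNMT3B, TET1, TET3, TDG and MBD4 and in 34.6% of all windows. The DNMT3B window had 3 CpG sites, the DNMT1 window 30 and the windows of UHRF1 between 36 and 46, against a median of 14 over all windows. The only DNMT3B window lies at a start inside the gene, whose 5′ end is at chr20:32762385. The reference held no window at that end, so neither the CpG count nor the lack of a match describes it. The windows of DNMT1 and UHRF1 also lie inside the gene spans given above. The matches are letters in a sequence, and no binding was measured.

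Levels were first compared between genes per kilobase (kb) of annotated exon. In untreated EV cells UHRF1 was highest at 32.9 ± 1.06 CPM per kb (SD, n = 3) and DNMT1 followed at 17.9 ± 0.246 CPM per kb. MBD4, TET3 and TDG lay between 7.59 and 9.17 CPM per kb, and the replicates of neighbours among these overlapped. DNMT3B followed at 5.27 ± 0.375 CPM per kb and UHRF2 at 2.12 ± 0.115 CPM per kb. DNMT3A ranked 8 of 10 at 1.95 ± 0.0480 CPM per kb. TET2 at 1.43 ± 0.183 CPM per kb and TET1 at 0.246 ± 0.0581 CPM per kb were the lowest, and they held these places in all 6 groups. DNMT3A ranked 7 of 10 in treated EV, 5 in untreated WT, 3 in treated WT, 2 in untreated MUT and 1 in treated MUT, where it reached 38.0 ± 0.632 CPM per kb. Its replicates overlapped those of DNMT1 in treated WT and those of UHRF1 in untreated MUT, so these neighbours are not separated. Without untreated MUT replicate 3, DNMT3A ranked 1 in that group at a mean of 40.4 CPM per kb, still overlapping UHRF1. These places depend on the length assigned to each gene. By the longest annotated transcript, DNMT1 and UHRF1 were level in untreated EV at 38.5 and 39.3 CPM per kb, and DNMT3A led in untreated MUT as well. The length of the introduced DNMT3A transcript is not given in the sources used here.

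**Figure D1:**
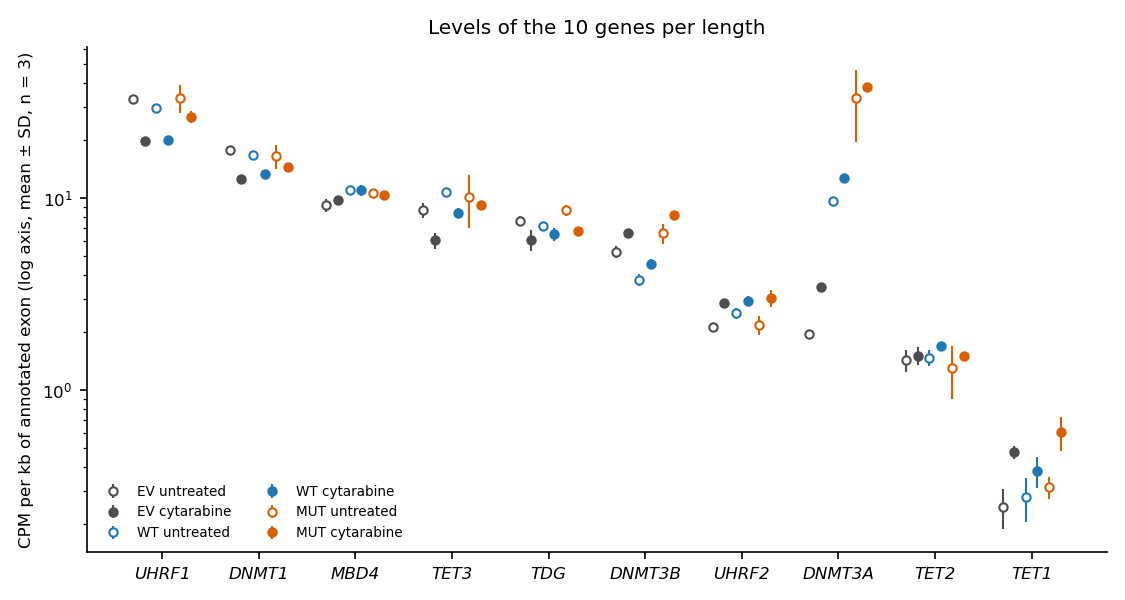
Level of each gene in CPM per kb of annotated exon (log axis, mean ± SD, n = 3) in the 6 groups, with open points for untreated and filled points for treated cells. DNMT3A runs from 1.95 CPM per kb in untreated EV to 38.0 in treated MUT, while TET1 stays lowest in all 6 groups.

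The response of the 10 genes to cytarabine was then tested within each line, with edgeR's quasi-likelihood test and Benjamini-Hochberg adjustment over all 18226 genes tested. An adjusted p under 0.05 counts as past the threshold. In EV 8 of the 10 genes passed it, 4 higher and 4 lower, against 49.1% of all genes tested (26.1% higher, 22.9% lower). In WT 4 passed, 1 higher and 3 lower, against 49% of all genes (26.3% higher, 22.7% lower). In MUT 6 passed, 3 higher and 3 lower, against 56.3% of all genes (30.4% higher, 25.9% lower). The median log2 fold change of the 10 genes was 0.09 in EV, 0.10 in WT and 0.09 in MUT, beside 0.05, 0.03 and 0.05 over all genes. DNMT1 and UHRF1 fell and DNMT3B rose in all 3 lines. A change past the threshold in 1 direction in all 3 lines was found for 35.3% of all genes. TET2 and MBD4 passed in no line. The WT count was 7 with only the compared groups fitted, which added DNMT3A, UHRF2 and TET2, and 2 without treated or untreated WT replicate 1.

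**Figure D2:**
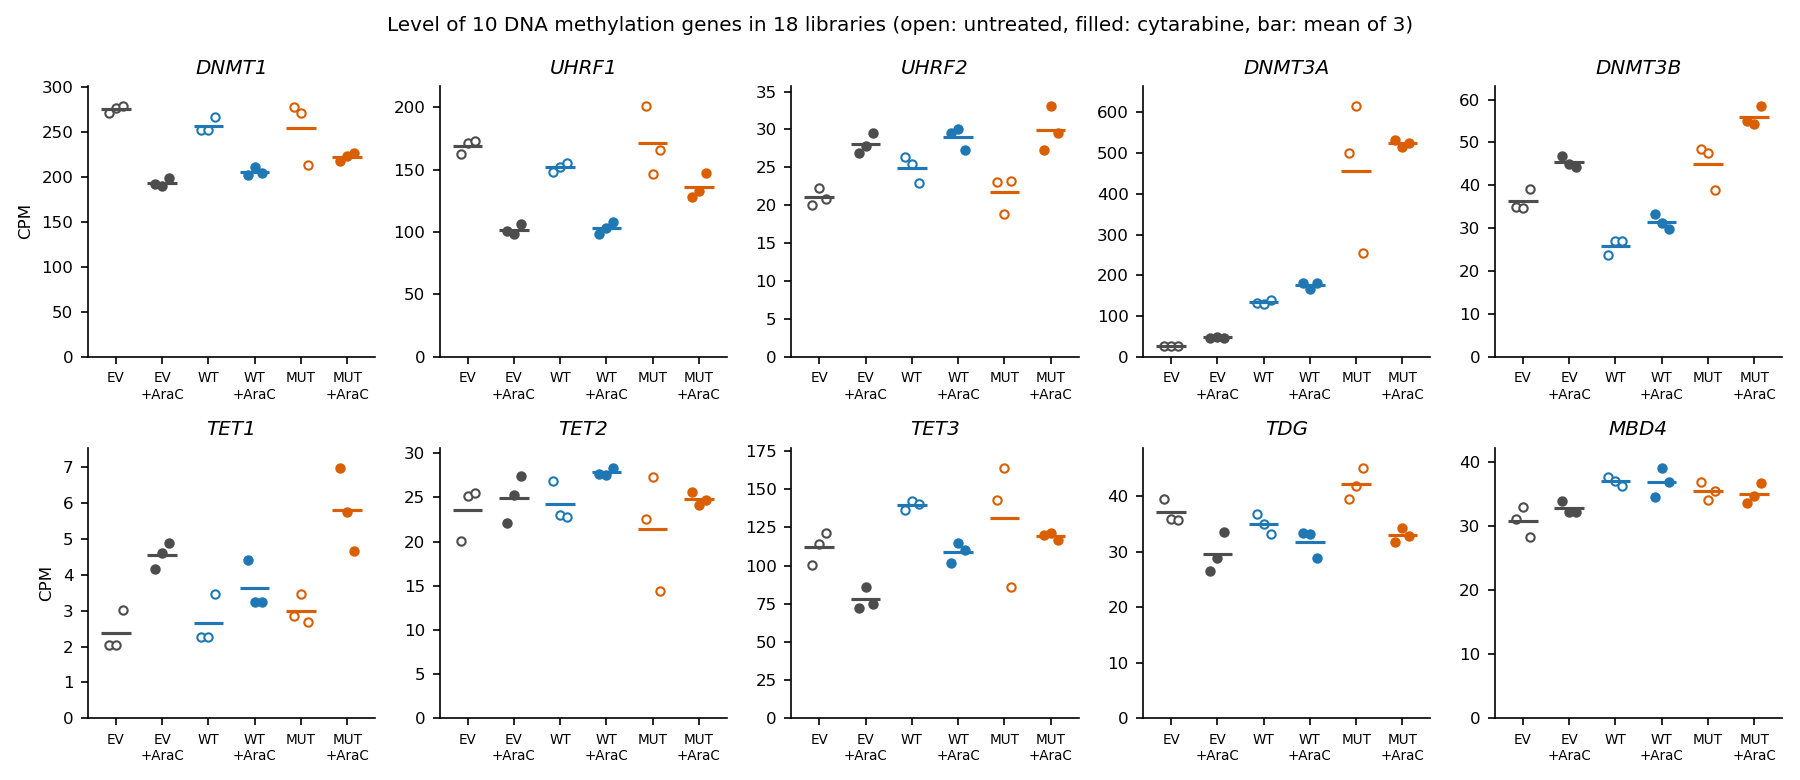
CPM of the 10 genes in the 18 libraries, with 3 points a group, open for untreated and filled for treated cells, and a bar at the mean; each vertical axis starts at 0. DNMT1 and UHRF1 are lower after cytarabine in EV and WT without overlap, DNMT3B is higher in all 3 lines, and DNMT3A separates the lines.

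DNMT1, the maintenance methyltransferase, gave 271, 276 and 279 CPM in the 3 untreated EV libraries and 192, 189 and 198 CPM in the treated ones. Untreated WT gave 252, 252 and 266 CPM and treated WT 202, 211 and 204 CPM. Untreated MUT gave 278, 271 and 213 CPM and treated MUT 217, 223 and 226 CPM. Treated and untreated libraries did not overlap in EV and WT, but in MUT untreated replicate 3 lay below all 3 treated ones. The log2 fold change under cytarabine was -0.51 (SE 0.0762, adjusted p 1.7e-05) in EV and -0.32 (SE 0.0760, adjusted p 0.00169) in WT in edgeR (quasi-likelihood, Benjamini-Hochberg adjusted). In MUT it was -0.19 (SE 0.0759, adjusted p 0.0376) in the same edgeR test, and it no longer passed with upper-quartile scaling, with only the compared groups fitted, or without untreated MUT replicate 1 or any of the 3 treated MUT libraries, where adjusted p ran from 0.0612 to 0.192. The MUT value was -0.12 without untreated MUT replicate 1 (adjusted p 0.187) and -0.33 without replicate 3 (adjusted p 1.3e-05) in edgeR. The fall in MUT was smaller than in EV by 0.32 on the log2 scale (unadjusted p 0.0079, adjusted p 0.174, edgeR interaction test). Without untreated MUT replicate 1 this difference was 0.39 (adjusted p 0.0456, edgeR), and without replicate 3 it was 0.17 (adjusted p 0.195, edgeR). Between lines the log2 fold change of DNMT1 ran from -0.12 to 0.20 and did not pass. The largest, treated MUT against treated EV (adjusted p 0.086 in edgeR), passed with the authors' factors, with DESeq2, with only the compared groups fitted, and without untreated MUT replicate 3 (adjusted p 0.00528 to 0.0493).

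UHRF1, the reader of hemimethylated sites, followed the same course with larger changes. Its CPM were 163, 171 and 173 in untreated EV and 101, 98.4 and 106 in treated EV. They were 148, 152 and 155 in untreated WT and 98.8, 103 and 108 in treated WT. They were 201, 147 and 166 in untreated MUT and 128, 133 and 147 in treated MUT. The groups did not overlap in EV or WT, and in MUT the highest treated library lay just above the lowest untreated one. The log2 fold change was -0.73 (SE 0.0886, adjusted p 1.49e-06) in EV, -0.56 (SE 0.0884, adjusted p 3.44e-05) in WT and -0.33 (SE 0.0877, adjusted p 0.00336) in MUT in edgeR. In MUT the adjusted p was 0.0562 with only the compared groups fitted, and the value was -0.20 without untreated MUT replicate 1 (adjusted p 0.0325) and -0.47 without replicate 2 in edgeR. The fall in MUT was smaller than in EV by 0.40 on the log2 scale, with unadjusted p 0.00457 and adjusted p 0.147 in the edgeR interaction test. This difference passed with DESeq2 at 0.37 (adjusted p 0.0495), and in edgeR at 0.53 (adjusted p 0.0124) without untreated MUT replicate 1. Without untreated MUT replicate 2 it was 0.26 (adjusted p 0.155, edgeR). Without cytarabine no line difference in UHRF1 passed the threshold, though MUT against WT did without untreated MUT replicate 2 (0.31, adjusted p 0.00561, edgeR). With cytarabine MUT exceeded EV by 0.42 (SE 0.0883, adjusted p 0.00367) and WT by 0.40 (SE 0.0882, adjusted p 0.00331) on the log2 scale in edgeR, and every treated MUT library lay above every treated EV and WT library. These 2 differences share the treated MUT libraries.

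Genes of S phase were set beside UHRF1 in the comparisons between lines. Of 30 tested S phase genes, 17 were higher and 0 lower in treated MUT than in treated EV, against 6.85% higher and 7.13% lower of all genes tested. In treated MUT against treated WT 10 were higher and 3 lower, against 10.4% and 9.48%. In treated WT against treated EV 13 were higher and 0 lower, against 7.41% and 9.12%, while UHRF1 differed there by 0.02 on the log2 scale (adjusted p 0.91, edgeR). The mean log2 CPM of the S phase genes lay between 6.67 and 6.73 in treated EV, between 6.91 and 6.92 in treated WT and at 7.02 in all 3 treated MUT libraries. In untreated cells it lay between 6.86 and 6.88 in EV, between 6.85 and 6.86 in WT and between 6.96 and 7.14 in MUT. Untreated MUT had 10 S phase genes higher and 1 lower than EV, against 19.9% of all genes in either direction (9.88% higher). UHRF1 differed there by 0.02 on the log2 scale (adjusted p 0.92, edgeR). Against untreated WT, untreated MUT had 9 higher and 1 lower, beside 21.2% (11.7% higher), with UHRF1 at 0.17 (adjusted p 0.176, edgeR). Untreated WT had 1 higher and 3 lower than EV, beside 11.7%, with UHRF1 at -0.15 (adjusted p 0.301, edgeR). The part of the S phase genes in the levels of UHRF1 and DNMT1 was not tested. Of the 50-base words in the exons of UHRF1, 21.1% also occur in other genes, mostly in a processed pseudogene, and how reads that match both were counted is not given in the sources used here.

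UHRF2, the paralogue, rose in EV and MUT. Its mean was 21.1 ± 1.14 CPM without and 28.1 ± 1.32 CPM with cytarabine in EV (SD, n = 3), 24.9 ± 1.75 and 29.0 ± 1.54 CPM in WT, and 21.7 ± 2.46 and 29.9 ± 2.95 CPM in MUT. Every treated library lay above every untreated library of its line. The log2 fold change was 0.42 (SE 0.0955, adjusted p 0.0013) in EV and 0.46 (SE 0.0944, adjusted p 0.000371) in MUT in edgeR. In WT it was 0.22 (SE 0.0937, adjusted p 0.0644), and it passed in edgeR with upper-quartile scaling (0.26, adjusted p 0.0235), with only the compared groups fitted, and without untreated MUT replicate 2 or 3. In the fit of all 18 libraries no line difference passed for UHRF2, and the 3 differences between cytarabine effects had unadjusted p from 0.0802 to 0.737.

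DNMT3A, the gene introduced in WT and MUT, was read as a check of the overexpression that the labels state. It had the values 26.9, 27.5 and 26.2 CPM in untreated EV, 131, 129 and 139 CPM in untreated WT and 499.7, 615 and 254 CPM in untreated MUT, so the lines did not overlap. Treated libraries gave 47.1, 49.6 and 45.5 CPM in EV, 182, 166 and 181 CPM in WT and 532, 515 and 525 CPM in MUT. The table has 1 row for the gene, so the cells' own and the introduced transcripts are counted together. These levels cannot tell wild-type from mutant transcripts. Untreated MUT exceeded untreated WT in DNMT3A by 1.77 (SE 0.185, adjusted p 2.04e-06) on the log2 scale in edgeR. Mutation and DNMT3A level therefore cannot be told apart in differences between MUT and WT. Each construct was carried by 1 derived line. In every comparison between lines, the construct and other differences between the derived lines therefore cannot be told apart either. The 3 libraries of a group are replicates of its line, so the p-values of line comparisons measure spread within lines only. Among the 3 methyltransferases, summed per kb, DNMT3A made up 7.76% ± 0.326 (SD, n = 3) in untreated EV, 32.1% ± 0.439 in untreated WT and 57.4% ± 8.14 in untreated MUT. After cytarabine its share was 15.2% ± 0.731 in EV, 41.6% ± 1.57 in WT and 62.7% ± 0.741 in MUT. DNMT1 made up 71.3% ± 0.743 in untreated and 55.6% ± 1.24 in treated EV, and 30.5% ± 5.62 and 23.9% ± 0.530 in MUT. By the longest transcripts the DNMT3A share was 5.70% in untreated EV and 55.7% in treated MUT. Both lengths are those of the annotated gene, and the length of the introduced transcript is not known here. The shares in WT and MUT are therefore not on a settled scale beside those in EV. The rise of DNMT3A under cytarabine passed in EV at 0.82 (SE 0.198, adjusted p 0.00198) in edgeR. The WT value of 0.40 and the MUT value of 0.20 did not pass (adjusted p 0.0724 and 0.353, same edgeR test). Without untreated MUT replicate 2 the MUT value was 0.44 (adjusted p 0.0180, edgeR), and without replicate 3 it was -0.12. In edgeR the WT value passed with upper-quartile scaling (adjusted p 0.0497) and with only the compared groups fitted (adjusted p 2.96e-08). It also passed without untreated MUT replicate 2 (adjusted p 0.0182) or 3 (adjusted p 4.03e-05). Every treated WT library lay above every untreated WT library. The fit of all 18 libraries shares its estimate of spread over the groups. The SD of DNMT3A was 185 CPM in untreated MUT, 5.17 CPM in untreated WT and 8.68 CPM in treated WT.

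DNMT3B, the other de novo methyltransferase, was lower in WT and higher in MUT than in EV. Its CPM were 34.9, 34.6 and 39.2 in untreated EV, 23.7, 27.0 and 26.9 in untreated WT and 48.5, 47.6 and 38.9 in untreated MUT. With cytarabine they were 46.8, 45.1 and 44.2 in EV, 33.3, 31.1 and 29.7 in WT and 55.0, 54.2 and 58.5 in MUT. The WT libraries lay below all EV and MUT libraries of the same treatment. The treated MUT libraries lay above all treated EV libraries, while untreated MUT replicate 3 fell just under the highest untreated EV library. Against EV the log2 fold change of WT was -0.49 (SE 0.0877, adjusted p 0.000857) untreated and -0.53 (SE 0.0853, adjusted p 0.000248) with cytarabine in edgeR. Against EV the log2 fold change of MUT was 0.31 (SE 0.0857, adjusted p 0.0143) untreated and 0.30 (SE 0.0831, adjusted p 0.0204) with cytarabine in edgeR. The untreated MUT value lost the threshold with only the compared groups fitted (adjusted p 0.142) and without untreated EV replicate 1 or 2 or untreated MUT replicate 1 (adjusted p 0.0581 to 0.0661). The treated one lost it without treated EV replicate 2 or 3 or treated MUT replicate 3 (adjusted p 0.0504 to 0.0918). Against WT the log2 fold change of MUT was 0.80 (SE 0.0869, adjusted p 3.21e-06) untreated and 0.83 (SE 0.0846, adjusted p 1.29e-06) with cytarabine in edgeR. These comparisons share groups, so they are not independent of each other.

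Cytarabine raised DNMT3B by 0.32 (SE 0.0853, adjusted p 0.00384) in EV, 0.28 (SE 0.0875, adjusted p 0.0118) in WT and 0.31 (SE 0.0835, adjusted p 0.00372) in MUT on the log2 scale in edgeR. Treated and untreated libraries did not overlap in any of the 3 lines. The 3 differences between these effects ran from -0.04 to 0.03 with adjusted p from 0.937 to 0.971 in edgeR. The WT effect lost the threshold without treated WT replicate 1 (adjusted p 0.0618) or untreated WT replicate 1 (adjusted p 0.0736). The MUT effect was 0.19 (adjusted p 0.0458, edgeR) without untreated MUT replicate 3.

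**Figure D3:**
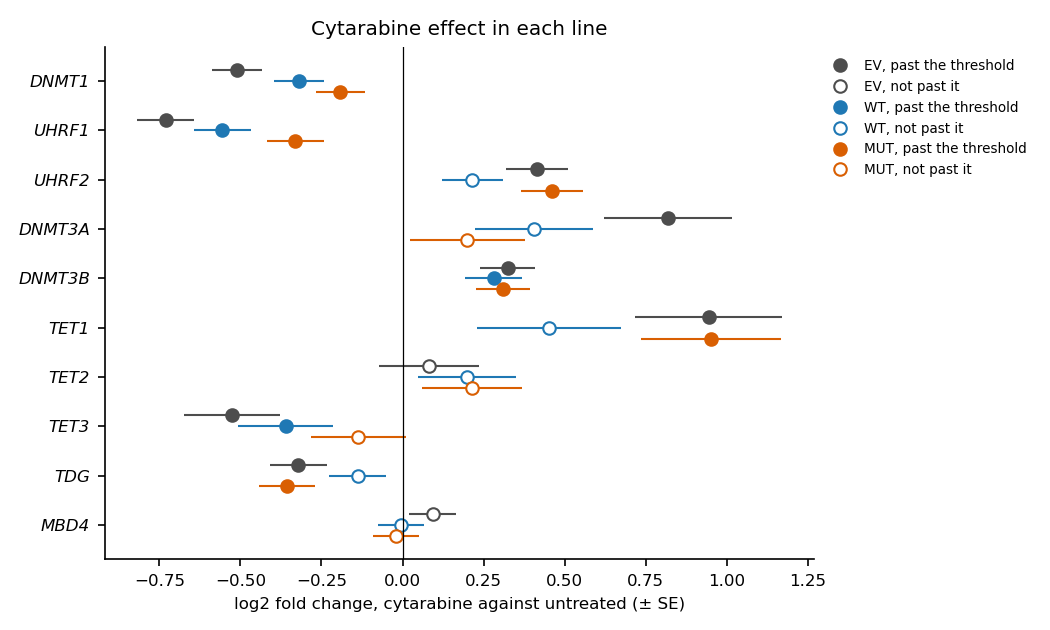
Log2 fold change under cytarabine (± SE) of the 10 genes in EV, WT and MUT, with filled points past the adjusted threshold of 0.05. DNMT1 and UHRF1 are below 0 and DNMT3B above 0 in all 3 lines with filled points, and TET2 and MBD4 have open points throughout.

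Of the 3 dioxygenases that oxidise methylcytosine, TET1 rose in EV and MUT, TET3 fell in EV and WT, and TET2 passed the threshold in no line. TET1 was the least abundant gene of the 10, at 2.04, 2.04 and 3.01 CPM without and 4.16, 4.62 and 4.88 CPM with cytarabine in EV. In WT it gave 2.26, 2.28 and 3.46 CPM untreated and 4.41, 3.24 and 3.24 CPM treated. In MUT it gave 2.86, 3.46 and 2.68 CPM untreated and 6.99, 5.75 and 4.66 CPM treated. The groups did not overlap in EV and MUT, and they overlapped in WT. The log2 fold change was 0.94 (SE 0.226, adjusted p 0.0018) in EV, 0.95 (SE 0.216, adjusted p 0.000967) in MUT and 0.45 (SE 0.223, adjusted p 0.102) in WT in edgeR, the last of these not past the threshold. The WT value was 0.68 without untreated WT replicate 3 (adjusted p 0.0278) and 0.29 without treated WT replicate 1 (adjusted p 0.372) in edgeR. Under cytarabine MUT exceeded WT in TET1 by 0.67 (SE 0.211, adjusted p 0.03) on the log2 scale in edgeR. That call was lost without treated MUT replicate 1 or 2 or treated WT replicate 2 or 3, with adjusted p from 0.0629 to 0.157.

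TET3, the most abundant of the 3 by level per kb, gave 101, 114 and 122 CPM without and 72.5, 86.3 and 75.2 CPM with cytarabine in EV. In WT it gave 137, 142 and 140.4 CPM untreated and 102, 115 and 110.1 CPM treated. In MUT it gave 143, 164 and 86.1 CPM untreated and 119.9, 122 and 116 CPM treated. Treated libraries lay below untreated ones without overlap in EV and WT, and in MUT only untreated replicate 3 lay below the treated ones. The log2 fold change was -0.53 (SE 0.148, adjusted p 0.00622) in EV and -0.36 (SE 0.146, adjusted p 0.0477) in WT in edgeR. The WT call, with an adjusted p just under the threshold, was lost in 16 of 25 alternatives (adjusted p 0.0503 to 0.149). These were 2 other scalings, each fit that left out a WT library, and 8 of the fits that left out an EV or MUT library. The other 9 kept the call, with adjusted p as low as 3.83e-07 (edgeR or DESeq2). Over all 25 the WT value stayed between -0.42 and -0.31. The SD of TET3 was 40.5 CPM in untreated MUT, 2.73 CPM in untreated WT and 6.72 CPM in treated WT. In MUT the change was -0.14 (SE 0.146, adjusted p 0.443), and without untreated MUT replicate 3 it was -0.40 with adjusted p 0.00041 in edgeR. With cytarabine TET3 was higher than in EV by 0.61 (SE 0.147, adjusted p 0.00852) in MUT and by 0.48 (SE 0.148, adjusted p 0.0307) in WT on the log2 scale in edgeR, with no overlap in either case. The WT difference lost the threshold without treated EV replicate 1 or 3 or treated WT replicate 2 or 3 (adjusted p 0.0803 to 0.112). Both comparisons use the same treated EV libraries. Untreated, the MUT difference from EV was 0.23 (adjusted p 0.304, edgeR) and 0.48 (adjusted p 0.000485, edgeR) without untreated MUT replicate 3.

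TET2 ranged from 14.4 CPM in untreated MUT replicate 3 to 28.4 CPM in a treated WT library. Its log2 fold change under cytarabine was 0.08 (SE 0.154, adjusted p 0.695) in EV, 0.20 (SE 0.152, adjusted p 0.293) in WT and 0.21 (SE 0.154, adjusted p 0.246) in MUT in edgeR. The WT value passed with only the compared groups fitted (adjusted p 0.0243) and the MUT value without untreated MUT replicate 2 (0.38, adjusted p 0.0261). Without untreated MUT replicate 3 the MUT value was -0.03 (adjusted p 0.81, edgeR). No comparison between lines passed for TET2.

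TDG, the glycosylase that excises oxidised forms of methylcytosine, fell in EV and MUT. Its mean was 37.1 ± 2.13 CPM without and 29.6 ± 3.59 CPM with cytarabine in EV (SD, n = 3), 35.0 ± 1.83 and 31.8 ± 2.49 CPM in WT, and 42.2 ± 2.84 and 32.9 ± 1.24 CPM in MUT. The replicates did not overlap in EV and MUT and overlapped in WT. The log2 fold change was -0.32 (SE 0.0890, adjusted p 0.00553) in EV, -0.36 (SE 0.0875, adjusted p 0.00188) in MUT and -0.14 (SE 0.0883, adjusted p 0.205) in WT in edgeR, the last not past the threshold. Untreated MUT exceeded untreated WT by 0.27 (SE 0.0878, adjusted p 0.036) in edgeR. That call was lost without a low-count filter, with only the compared groups fitted, and without untreated MUT replicate 3 or any untreated WT library (adjusted p 0.0503 to 0.139). Of the 50-base words of TDG, 9.07% also occur in other genes, mostly in its pseudogene TDGP1.

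MBD4, the thymine glycosylase, had the smallest span of group means among the 10 genes, 0.27 on the log2 scale. Its 18 values lay between 28.2 and 39.1 CPM, and its log2 fold change under cytarabine was 0.09 in EV, -0.01 in WT and -0.02 in MUT, with adjusted p from 0.315 to 0.956 in edgeR. Untreated WT gave 37.7, 37.0 and 36.2 CPM and untreated EV 31.0, 33.0 and 28.2 CPM, without overlap. This difference of 0.27 (SE 0.0727, adjusted p 0.0208) on the log2 scale in edgeR lost the threshold without untreated EV replicate 1 or 3 or untreated WT replicate 1 or 2 (adjusted p 0.0612 to 0.133). The MUT difference from untreated EV was 0.21 (SE 0.0731, adjusted p 0.0531), and it passed with DESeq2 size factors, upper-quartile scaling, the authors' factors and DESeq2 (adjusted p 0.0208 to 0.0419). MBD4 overlaps IFT122 on the opposite strand, and DNMT1 overlaps S1PR2 on the same strand; the strand handling of the counts is not given in the sources used here.

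Between lines, 2 to 4 of the 10 genes differed in each comparison. DNMT3A, introduced in WT and MUT, is 1 of the genes in every count, and its calls against EV were set by the design. Untreated WT differed from EV in 3 genes, DNMT3A and MBD4 higher and DNMT3B lower, against 11.7% of all genes tested in edgeR with Benjamini-Hochberg adjustment. With cytarabine the 3 were DNMT3A and TET3 higher and DNMT3B lower, against 16.5%. MUT differed from EV in 2 genes untreated, DNMT3A and DNMT3B, both higher, against 19.9% of all genes (9.88% higher). With cytarabine it differed in 4, DNMT3A, DNMT3B, UHRF1 and TET3, all higher, against 14% (6.85% higher). MUT differed from WT in 3 genes untreated, DNMT3A, DNMT3B and TDG, all higher, against 21.2% (11.7% higher). With cytarabine it differed in 4, DNMT3A, DNMT3B, UHRF1 and TET1, all higher, against 19.8% (10.4% higher). In the comparison of untreated MUT with untreated EV, leaving out untreated MUT replicate 3 gave 4 genes and leaving out untreated MUT replicate 1 or untreated EV replicate 1 gave 1. With only the compared groups fitted, untreated WT differed from EV in 7 genes, DNMT1, UHRF1, UHRF2 and TET3 in addition, and untreated MUT differed from EV in 1.

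**Figure D4:**
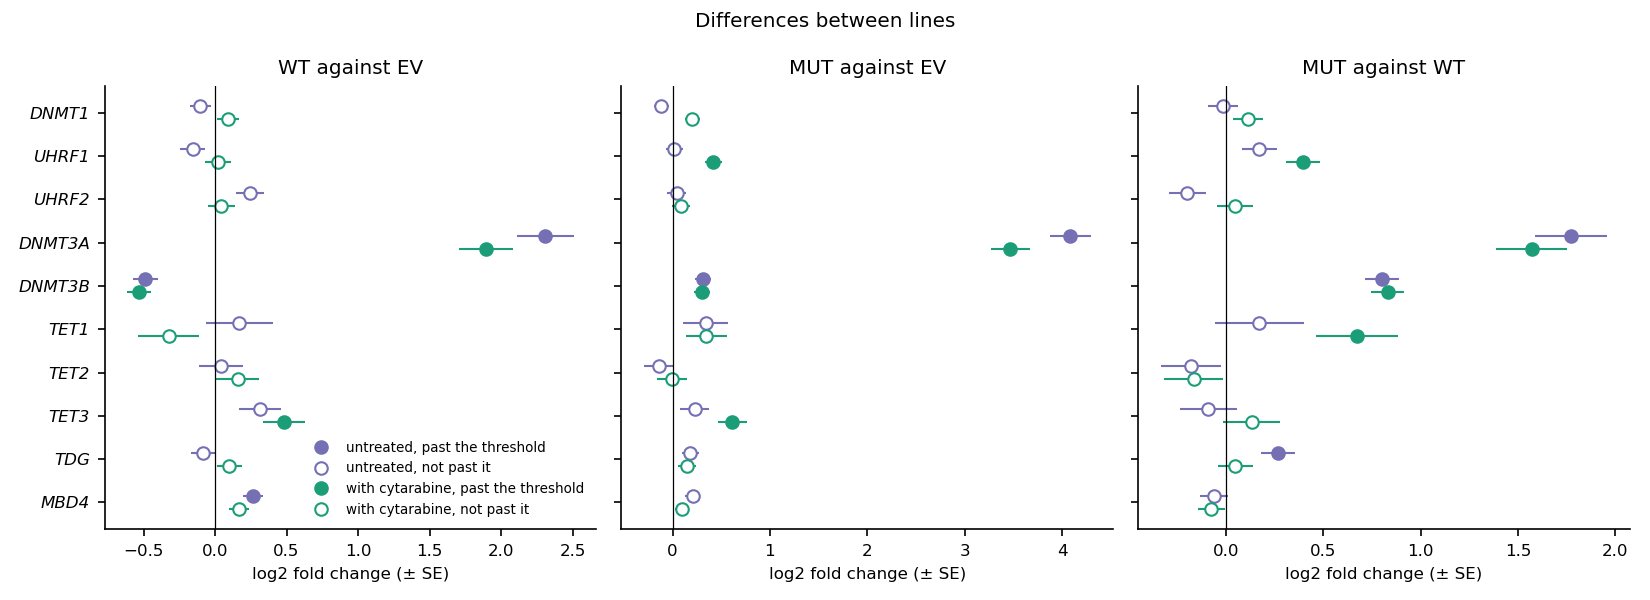
Log2 fold change (± SE) between lines for the 10 genes, untreated and with cytarabine, with filled points past the adjusted threshold of 0.05; the panels share groups and have different horizontal scales. DNMT3A and DNMT3B have filled points in every panel under both conditions, DNMT3B below 0 for WT against EV and above 0 for MUT.

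No member's cytarabine effect differed between lines past the threshold. The edgeR interaction test called 0 of the 10 genes for WT against EV, MUT against EV and MUT against WT, where 0.285%, 0.214% and 1% of all genes passed. With p left unadjusted the edgeR counts under 0.05 were 0, 3 and 0, the 3 being DNMT1, UHRF1 and DNMT3A. With DESeq2 the counts past the adjusted threshold were 0, 1 and 0. With only the compared groups fitted, 1 gene passed for WT against EV, DNMT3A at -0.42. Without untreated MUT replicate 3, the DNMT3A effect in MUT passed as different from that in EV (-0.94) and from that in WT (-0.53) in edgeR.

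For members whose 6 group means spanned at least 1 on the log2 scale, the 3 genes with the most similar profile over the 6 group means were read out. DNMT3B was closest to CCDC28B, SLC43A1 and MMP2, with root mean square differences of 0.06, 0.07 and 0.08 on the log2 scale. TET1 was closest to SEMA6B, RAET1E-AS1 and SPATA6, with differences of 0.07, 0.07 and 0.08. For DNMT3A the closest profiles were those of KRT75, FAM20C and TICAM2, at 0.62, 0.97 and 1.09. These are descriptions over 6 means.

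Genes around the 10 enzymes were examined as lists. Their counts stand beside shares over all genes tested of 26.1% higher and 22.9% lower in EV, 26.3% and 22.7% in WT, and 30.4% and 25.9% in MUT, and a list near these shares is no result about its genes. Of 12 tested cofactors and regulators of the methyltransferases, cytarabine raised 0 and lowered 5 in EV, raised 0 and lowered 6 in WT, and raised 2 and lowered 5 in MUT, with medians of -0.21, -0.24 and -0.07 on the log2 scale. USP7, the deubiquitinase that stabilises DNMT1 and UHRF1, fell in EV, WT and MUT with log2 fold changes of -0.76, -0.73 and -0.96. TRIM28, a corepressor, fell by 0.71, 0.72 and 0.91, and untreated it was higher in MUT than in EV by 0.55. Of 7 tested readers of methylated DNA, 4 fell in EV and 3 in each of WT and MUT, while 1, 0 and 2 rose, with medians of -0.25, -0.17 and -0.10. MBD2 and MBD3 fell in all 3 lines, MBD2 with log2 fold changes of -0.72, -0.93 and -1.09.

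Of 15 tested genes of base excision repair and the GADD45 family, 6 fell in EV, 8 in WT and 6 in MUT, and 1, 1 and 2 rose. Their medians were -0.12, -0.23 and -0.21. The uracil glycosylase UNG had log2 fold changes of -1.25, -0.84 and -0.95 and the endonuclease APEX1 -0.88, -0.75 and -0.89. Of 10 tested TET cofactors and genes of 2-oxoglutarate metabolism, 4 rose in each line and 2, 3 and 3 fell, with medians of 0.02, 0.10 and -0.03. IDH2, which makes 2-oxoglutarate in mitochondria, rose by log2 fold changes of 1.21, 1.17 and 1.32. CXXC5, a CXXC-domain protein that binds TET2, rose by 0.74, 0.59 and 0.78, and untreated it was -0.88 in WT against EV and 1.31 in MUT against WT. Of 15 tested genes of the methionine and one-carbon cycle, which supplies the methyl donor, 4 rose in each line and 8, 7 and 7 fell, with medians of -0.22, -0.30 and -0.23. MAT2A, which makes S-adenosylmethionine, had log2 fold changes of -0.54, -0.64 and -0.43.

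Of the 30 S phase genes 3 rose and 12 fell in EV, 9 and 6 in WT, and 10 and 9 in MUT, with medians of -0.13, 0.05 and -0.03. The helicase subunit genes MCM5, MCM6 and MCM7 fell in all 3 lines, MCM7 with log2 fold changes of -0.84, -0.72 and -0.87. Of 20 germline genes whose promoters are methylated in somatic cells, 8 were tested, and 3 rose and 4 fell in EV, 3 and 1 in WT, and 2 and 4 in MUT, with medians of -0.29, -0.01 and -0.19. STK31 rose by log2 fold changes of 1.62, 1.46 and 2.06, and MAGEA4 fell by 0.78, 0.71 and 0.90. Untreated STK31 was low, with means of 1.35, 1.97 and 2.96 CPM in EV, WT and MUT. Untreated MAGEA4 had means of 730, 687 and 665 CPM, so it was not silent in these cells. Methylation of these promoters was not measured here. Every change named for a list as a rise or fall was past the adjusted threshold in edgeR, and medians over all genes tested lay between 0.03 and 0.05.

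**Figure D5:**
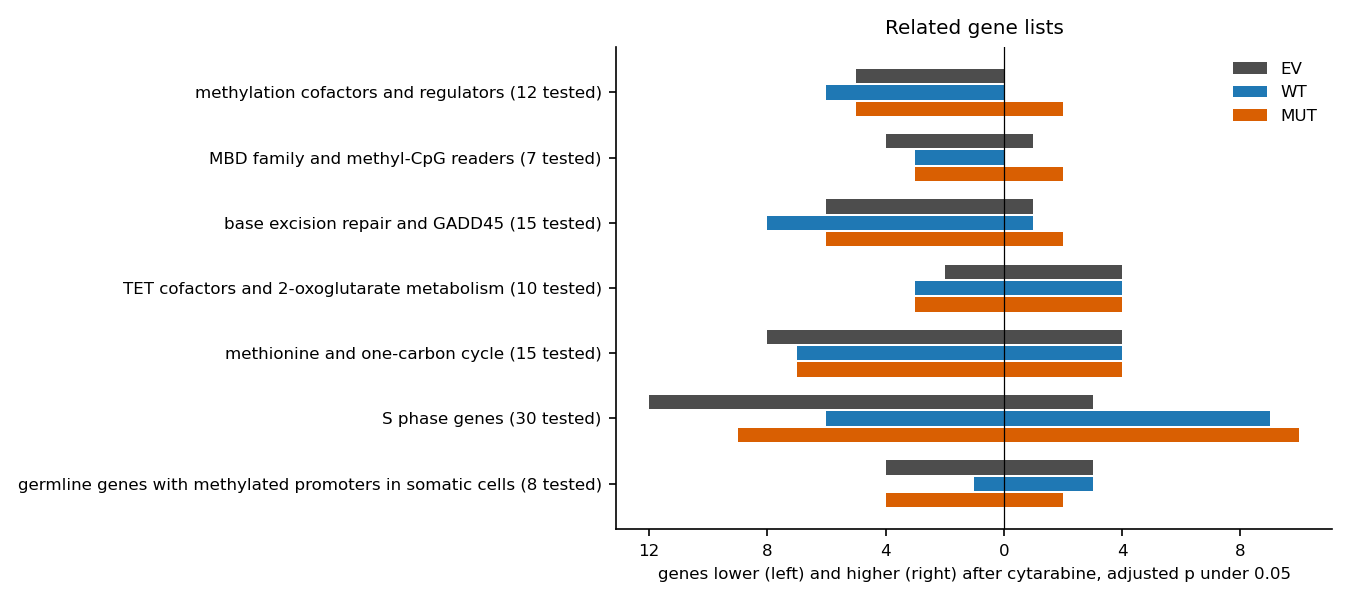
Number of tested genes of 7 related lists that were lower (to the left) or higher (to the right) after cytarabine at an adjusted p under 0.05, in EV, WT and MUT. In the S phase list 12 genes are lower in EV, 6 in WT and 9 in MUT; in the TET cofactor list 4 are higher in each line.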

How the data were processed

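RNA of 18 U2OS libraries in 6 groups of 3 was analysed. The authors deposited estimated counts per gene, and a second table with a normalized signal equal to 1 plus a factor per library times the count (tested on the values), used only to read those factors. The submitters' processing notes name CASAVA, STAR 2.6.1d and hg38; the counter and its handling of strand and multiple matches are not given in the sources used here. Estimated counts were rounded and fitted with edgeR 4.0.16 in R 4.3.3 (filterByExpr, 18226 genes tested, TMM factors, 6 group coefficients, quasi-likelihood F test, Benjamini-Hochberg adjustment, common biological coefficient of variation 0.104). Each standard error is the size of the log2 fold change over the root of its F statistic. All libraries were kept. Replicate pairs differed by more than sampling noise (chi-square per degree of freedom 2.45 to 46.8). The pairs of untreated MUT libraries had the highest values, from 21.2 to 46.8, and the highest in another group was 15.2, in treated EV. Alternatives were other scalings, no filter, DESeq2 1.42.0, a replicate block, only the groups compared, and leaving out each library. The test was checked on simulated counts; after a first criterion over all genes had failed, it was narrowed to log2 changes of 1 in genes with a mean of at least 100 counts. Many changes in genes with fewer counts, and most of those of 0.5 on the log2 scale, were missed there, so a difference of that size that did not pass is not shown to be absent. TET1 lies below that mean, so the check does not cover it.

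The 10 genes, the lists and the tests were chosen with earlier results of these data known. From each list, up to 3 genes with the largest mean change called in 1 direction in all 3 lines could be named, and the largest call of each untreated line comparison, given a mean log2 CPM of at least 1 and no overlap of replicates; not all are printed.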

Additional observations from a re-analysis of the deposited data

Results flagged for a closer look

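The cytarabine effect on MCM5, a subunit of the replicative helicase, differed between the WT and EV lines by 0.43 on the log2 scale (adjusted p 0.0191, edgeR interaction test with Benjamini-Hochberg adjustment). MCM5 fell by 1.09 on the log2 scale in EV and by 0.66 in WT. The lines differed before treatment as well, with means of 265 CPM in untreated EV and 228 CPM in untreated WT. That untreated difference was -0.22 on the log2 scale (adjusted p 0.0118, edgeR). Treated means were 124 CPM in EV and 144 CPM in WT. The difference lay between 0.40 and 0.45 over 25 alternatives, with adjusted p from 1.23e-07 to 0.0906, and it did not pass the threshold in 10 of them. None of the 10 methylation genes showed such a difference past the threshold in the reported edgeR fit.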

How the results depend on the processing

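Of 2998 values of the 10 genes recomputed under the alternatives, 2909 kept their side of the threshold, 50 lost it and 39 gained it, and no value called in either fit changed sign. A further 78 values that passed in neither fit changed sign. Of the 37 calls, 27 held in every alternative. Most counts of called genes stayed within 1.5 times of those reported. In fits of only the groups compared the count was 7 for cytarabine in WT, 7 for untreated WT against EV, 1 for untreated MUT against EV and 1 for the difference of effects between WT and EV. With DESeq2 the count for the difference of effects between MUT and EV was 1. Leaving out single libraries gave 2 to 6 genes for cytarabine in WT (2 without treated or untreated WT replicate 1), 1 to 4 for untreated MUT against EV, 0 to 2 for the difference of effects between MUT and EV (2 without untreated MUT replicate 1, 1 without replicate 3) and 0 to 1 for that between MUT and WT (1 without untreated MUT replicate 3). The cause was not tested. With the replicate block the counts were 8, 4 and 6 for cytarabine in EV, WT and MUT, and the block changed no call of a member. Replicate numbers showed no clear pairing of libraries. Deviations of same-numbered libraries correlated between -0.176 and 0.352 (median -0.0159), and those of other-numbered libraries between -0.368 and 0.297 (median 0.003). Of 18 libraries, 8 were closest to their own number. For the named genes of the lists, 4333 of 4525 values kept their side of the threshold, 133 lost it and 59 gained it, and none was reversed. TET1, with 35 to 159 counts a library, has the least precise values.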
